A study of Homo sapiens with 2 samples.

Results

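Matricellular proteins are secreted into the extracellular matrix but do little to hold it up. They bind cell surface receptors, growth factors, proteases and structural matrix proteins, and so change how a cell adheres, moves and reads its surroundings. Many are low in resting adult epithelium and are known to be induced in wound healing, fibrosis and carcinoma, where tenascin-C and periostin in particular are often supplied by stromal cells. Of the human genes, 10 that encode such proteins were examined here by their names on the array: TNC, THBS1, THBS2, SPARC, SPP1, POSTN, TGFBI, CYR61, CTGF and NOV. The array listed 30484 names in all, and the 10 genes had 15 probes on 33 spots. Current gene tables call the last 3 genes CCN1, CCN2 and CCN3.

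RNA came from cultured cells of 1 human line. SAS cells, which were established from a squamous carcinoma of the tongue, served as the parental population, and eSAS cells were what remained of them after 5 rounds of selection for large spheroids on the removable filter of a device called Spheroid Catch. The labels name no introduced gene or drug for these samples, and both populations were kept in the same medium with fetal bovine serum. The eSAS cells are a selected population and the labels do not call them a clone. The study's methods describe the choice of a single cell to establish a line. Whether the eSAS cells profiled here passed that step is not stated. Total RNA of each was labelled with Cy3 and hybridised to 1 whole-genome array, both on the same slide, so the comparison asks which transcripts differed after the selection. With 1 array per population there is no replicate check, and values are therefore given without a test or p-value between the populations.

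Values are processed signals, which are linear intensities from which the scanner software had removed background. Ratios are given as log2 of eSAS over SAS after each array was divided by its 75th percentile, equal to 1242 for SAS and 1196 for eSAS. Of 41000 probes, 28439 were detected well above background by 1 array or more, and 26659 by both, once spots marked by the software had been left out. For those detected by both, the median log2 ratio was -0.0039 with an SD of 0.36, and 92.0% were within 1.5-fold. Replicate spots of 1 probe differed in their log2 ratio with an SD of 0.080 (211 probes), and genes with 2 probes showed a median difference between them of 0.11 (3960 genes, 95th percentile 0.55). These figures are technical and leave out the variation between cultures. The SAS array had 194 spots marked as non-uniform, of which 175 lay in rows 466 to 512, and the eSAS array had 9.

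Of the 8 matricellular genes that could be measured, 5 differed little between the cells. TNC was 2.25-fold lower and SPARC 1.62-fold lower in eSAS cells, NOV was 1.79-fold higher at 1 of its 2 probes, and every probe of THBS1, THBS2, CYR61, CTGF and TGFBI lay within 1.5-fold. SPP1 and POSTN were not well above background in either population. Thus 13 probes of 8 genes were measured on both arrays, and their median log2 ratio was 0.0022, beside -0.0078 over all 28439 probes.

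Counts past a fold were small. At least 2-fold, 1 of the 13 probes was lower in eSAS cells (TNC), beside 1.97% of all probes, and 0 were higher, beside 1.83%. At least 1.5-fold, 2 were lower (TNC and SPARC), beside 6.12% of all probes, and 1 was higher (NOV), beside 4.43%. A count of 1 or 2 probes does not set the group apart from the rest of the array.

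**Figure D1:**
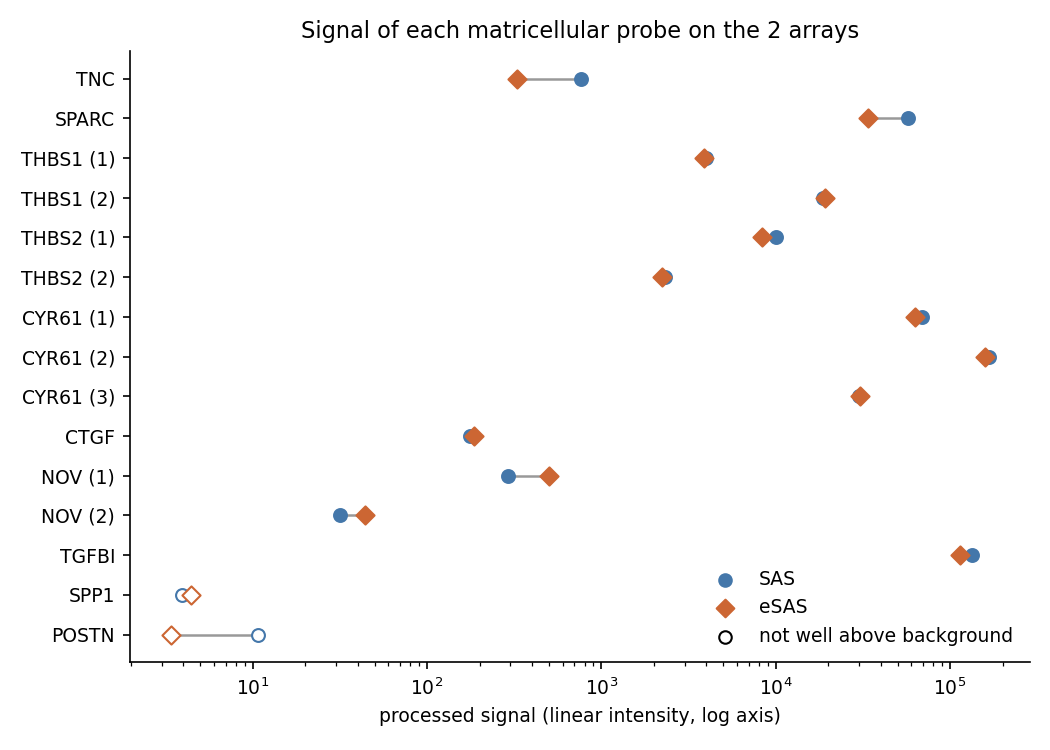
Processed signal (linear intensity on a log axis) of each of the 15 probes on the SAS array (circles) and the eSAS array (diamonds). Each row is 1 probe, numbered where a gene has several, and only the distance within a row is to be read; TNC and SPARC lie to the left on the eSAS array, NOV lies to the right, and SPP1 and POSTN (open symbols) were not well above background.

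To show the regulatory sequence of genes that differed beside genes that did not, the promoters of TNC and SPARC, both lower in eSAS cells, are printed here with those of THBS1 and CTGF, both within 1.5-fold. Sequences are from RefSeq on GRCh38.p14 and run 5′ to 3′ on the strand of the gene, from 250 bases before its start to 50 after. Of the 10 genes, 8 matched an entry of the promoter table. Capitals mark the letters of 4 short motifs searched on both strands, which were GGAATG for TEAD factors, TGANTCA for AP-1, CAGACA for SMAD proteins and TATAAA for the TATA box, and in these 4 promoters no match of one overlapped a match of another.
TNC, chr9:115118108-115118407, minus strand: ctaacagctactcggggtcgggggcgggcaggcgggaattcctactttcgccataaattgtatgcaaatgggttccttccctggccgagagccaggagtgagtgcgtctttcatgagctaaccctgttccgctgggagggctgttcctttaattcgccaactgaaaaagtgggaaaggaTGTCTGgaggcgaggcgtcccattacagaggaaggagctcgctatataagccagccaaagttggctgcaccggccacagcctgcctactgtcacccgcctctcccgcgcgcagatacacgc
SPARC, chr5:151686866-151687165, minus strand: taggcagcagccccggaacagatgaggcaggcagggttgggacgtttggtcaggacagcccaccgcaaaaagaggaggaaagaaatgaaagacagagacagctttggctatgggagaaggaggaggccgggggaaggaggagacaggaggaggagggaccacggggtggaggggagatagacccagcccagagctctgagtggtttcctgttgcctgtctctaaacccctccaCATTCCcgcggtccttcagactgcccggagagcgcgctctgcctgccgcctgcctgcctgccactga
THBS1, chr15:39580829-39581128, plus strand: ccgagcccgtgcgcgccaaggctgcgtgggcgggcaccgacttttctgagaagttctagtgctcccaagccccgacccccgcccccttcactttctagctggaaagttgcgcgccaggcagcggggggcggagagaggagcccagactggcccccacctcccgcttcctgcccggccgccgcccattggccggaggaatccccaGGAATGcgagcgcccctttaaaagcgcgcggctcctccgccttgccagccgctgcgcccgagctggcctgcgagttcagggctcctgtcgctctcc
CTGF, chr6:131951323-131951622, minus strand: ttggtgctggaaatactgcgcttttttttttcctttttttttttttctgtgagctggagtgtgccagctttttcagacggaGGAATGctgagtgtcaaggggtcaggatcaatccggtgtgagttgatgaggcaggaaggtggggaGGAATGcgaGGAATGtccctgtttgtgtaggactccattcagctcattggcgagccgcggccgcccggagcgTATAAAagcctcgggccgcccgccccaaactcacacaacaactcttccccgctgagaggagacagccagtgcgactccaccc

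CTGF held the TEAD letters at 3 places, beginning 169, 104 and 95 bases before its start, and the letters TATAAA 32 bases before it. THBS1 held the TEAD letters 46 bases before its start and SPARC, on the opposite strand, 17 bases before. TNC held none of the TEAD letters but had the SMAD letters on the opposite strand, 71 bases before its start. The TEAD letters occurred in 14.0% of 35116 promoters of this length and in those of SPARC, CTGF, THBS1 and THBS2 among the 8, so they were present in a promoter of a gene that was lower and in promoters of genes within 1.5-fold. The SMAD letters occurred in 16.9% of all promoters and in TNC, THBS2 and SPP1. The letters TATAAA occurred in 11.5% and in CTGF, THBS2 and POSTN, and the AP-1 letters in 7.71% and in POSTN. Only these exact letters were searched, and near forms, such as tatataag in TNC, were not counted. A match is a description of the sequence and not a bound site.

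TNC encodes tenascin-C, a large hexameric glycoprotein that weakens the adhesion of cells to fibronectin. Its probe A_23_P157865 lies at chr9:116823131-116823190 of hg18, on the minus strand, and was spotted once. Its processed signal was 763 in SAS cells and 326 in eSAS cells, and both were well above background. The log2 ratio was -1.17 ± 0.20 (software error), which is 55.6% lower in eSAS cells. The software error combines the errors that the scanner software gave for the 2 signals, expressed in log2. It is not a measured spread, and was 0.20 also for the THBS1 probe whose 9 spots had an SD of 0.013. Replicate spots of 85 other probes of like brightness had an SD of 0.061, so the difference was larger than the spread between spots. Of the probes measured on both arrays, 0.844% had a ratio as low or lower. The spots around it did not share the difference, with a median log2 ratio of -0.035 over the 5 neighbours that could be used. The pixels of the spot were no more uneven than those of other spots, with an SD over mean of 0.0907 and 0.121 on the SAS and eSAS arrays against medians of 0.128 and 0.144.

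Probes for alternatively spliced tenascin-C domains lie elsewhere in the gene, and were sought by their descriptions after the values of the 10 genes had been seen. The probe for U88892, which carries the domain AD2, lies at chr9:116857612-116857671. Its signal was 27.7 in SAS cells, well above background, and 5.26 in eSAS cells, which was not, so it was at least 1.76-fold lower in eSAS cells. The probe for M96686, which carries the domain AD1, had signals of 6.55 and 3.15 and was not well above background on either array. The direction at U88892 was that of the TNC probe, but its signal in SAS cells lay not far above the lowest signal called well above background there, 12.8.

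SPARC encodes osteonectin, a collagen-binding protein that counters cell spreading and takes part in the assembly of collagen. Its only probe, A_23_P7642, lies at chr5:151022378-151022437 on the minus strand. The processed signal was 57106 in SAS cells and 33880 in eSAS cells, a log2 ratio of -0.70 ± 0.20 (software error) and 38.4% lower. This was larger than the spread of replicate spots of like brightness, whose SD was 0.046 (37 probes), and 3.27% of probes had a ratio as low or lower. Neighbouring spots had a median of 0.057 (7 spots). The spot was more uneven than others of its brightness on both arrays, with a pixel SD over mean of 0.157 and 0.171 against medians of 0.0749 and 0.0773. The software did not mark it, and the part of this unevenness in the ratio was not tested.

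**Figure D2:**
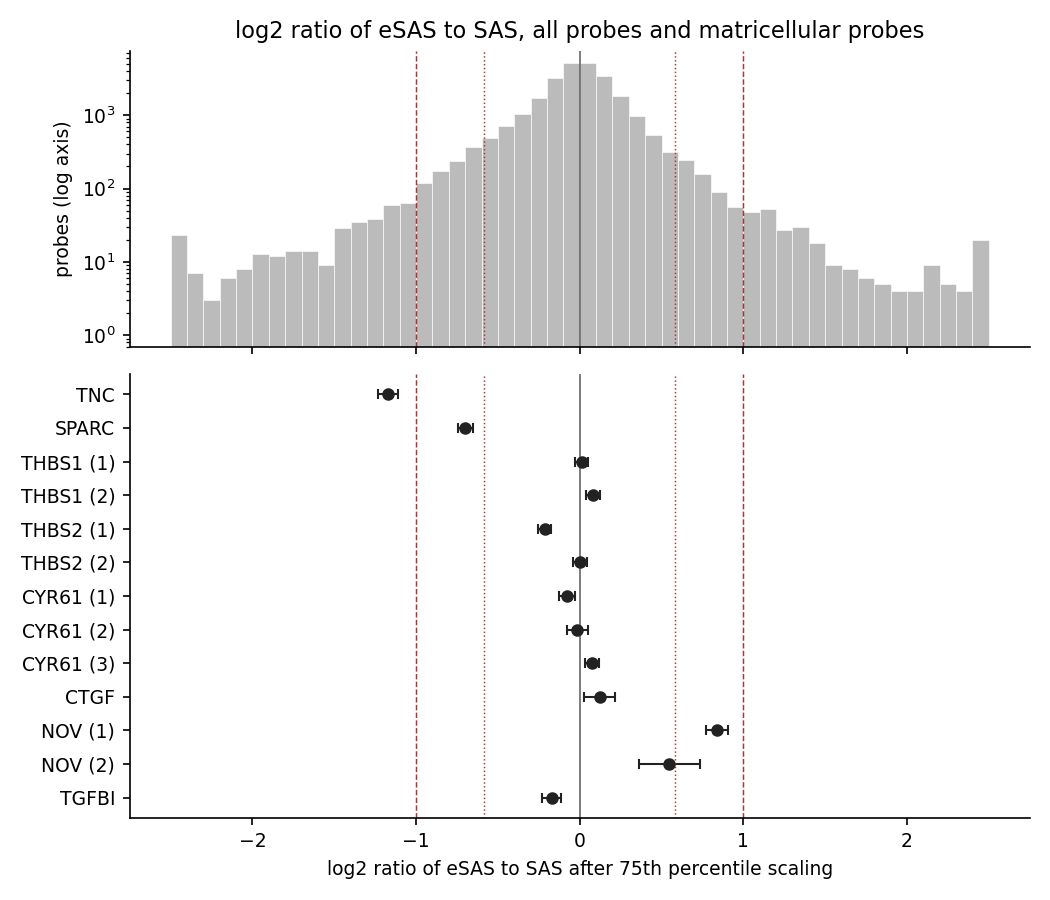
Top, number of probes (log axis) by log2 ratio of eSAS to SAS for the 26659 probes measured on both arrays; the outermost bars also hold 18 probes below -2.5 and 17 above 2.5. Bottom, the 13 matricellular probes on the same axis, each with an error bar of 1 SD of replicate spots of like brightness; dotted and dashed lines mark 1.5-fold and 2-fold, and TNC alone lies past 2-fold.

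THBS1 and THBS2 encode thrombospondin-1 and thrombospondin-2, trimeric proteins that bind CD36, CD47 and integrins and are known to restrain angiogenesis; thrombospondin-1 can also activate latent TGF-beta. The THBS1 probe A_23_P206212, at chr15:37675202-37675261, was the only matricellular probe above background with replicate spots. Its 9 unmarked spots ranged from 3794 to 4078 in SAS cells (median 3998) and from 3674 to 3985 in eSAS cells (median 3893). The coefficients of variation were 2.37% and 2.66%. After scaling, the log2 ratio was 0.011 ± 0.013 (SD over 9 spots), and single spots ranged from -0.0043 to 0.039. The ranges of the 2 arrays overlapped, and the ratio was within the spread of its own spots. The tenth spot, in row 486, was marked on the SAS array and stood apart, with a signal of 2574 there and 3732 on the eSAS array.

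The second THBS1 probe, A_24_P142118, starts 921 bases further along. Its signals were 18755 and 19081, a log2 ratio of 0.079 that differed by 0.068 from that of the first probe. A transcript read from the opposite strand of the THBS1 locus, N48043, had signals of 428 and 411 and a ratio of -0.0038. A probe for a thrombospondin-p50 transcript, THC2712084, had 3196 and 2824 and a ratio of -0.12, but was marked as non-uniform on the SAS array and lies in row 475. The difference between the 2 THBS1 probes was smaller than the median difference for genes with 2 probes.

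For THBS2, the probe A_23_P62021 at chr6:169358136-169358199 had signals of 9994 and 8296, a log2 ratio of -0.21. Its other probe, A_24_P605612, had 2302 and 2220, a ratio of 0.0022, but the array lists it with a span of only 13 bases in hg18, so where it reads the gene is uncertain. They differed by 0.22, more than the median for genes with 2 probes and less than the 95th percentile, and both were within 1.5-fold.

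**Figure D3:**
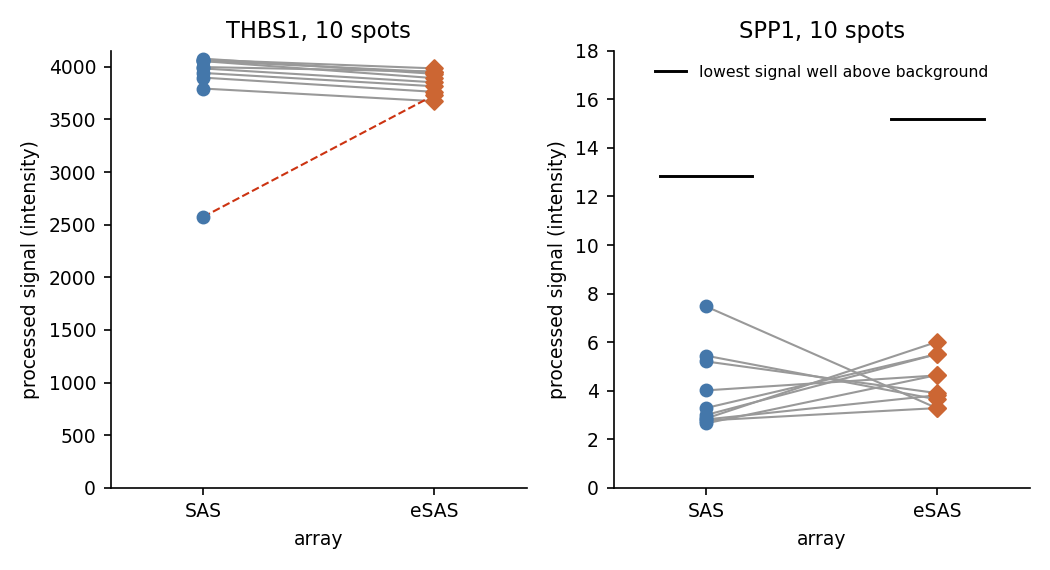
Processed signal (linear intensity) of the 10 spots of the THBS1 probe (left) and of the SPP1 probe (right) on each array, with a line joining the same spot position. The dashed red line is the THBS1 spot marked on the SAS array, at 2574, and the black bars on the right are the lowest signals called well above background, 12.8 for SAS and 15.2 for eSAS, which lie above all SPP1 spots.

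The CCN genes encode small secreted proteins with modules that bind integrins, heparan sulfate and growth factors. CYR61 and CTGF are established target genes of the transcriptional co-activator YAP acting with TEAD factors. CYR61 was read by 3 probes within 1 kilobase on chromosome 1, between 85821032 and 85821818. Their signals were 69281 and 63124 at A_23_P46426, 166962 and 159253 at A_23_P46429, and 30190 and 30575 at A_24_P370946, in SAS and eSAS cells respectively. The log2 ratios were -0.080, -0.014 and 0.073, and the 3 probes differed from each other by 0.066 to 0.15. The largest size among them was a 1.06-fold difference, and the probes did not share a direction. At A_24_P370946 the 5 usable neighbours had a median of -0.47, and relative to them its ratio was 0.54. The value at this probe thus depended on whether neighbours were subtracted, and an effect of position was not tested.

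CTGF had 1 probe, A_23_P19663, at chr6:132311823-132311882, with a signal of 177 in SAS cells and 185 in eSAS cells. The log2 ratio was 0.12 ± 0.21 (software error), and replicate spots of like brightness had an SD of 0.093 (58 probes). A difference of this size is close to the spread between spots. A transcript on the opposite strand of the same locus, BQ130701, had signals of 3.46 and 3.99 and was not well above background on either array.

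NOV encodes CCN3, a member of the family that often opposes the action of CTGF. Its probe A_23_P82929, at chr8:120505616-120505675, gave 290 in SAS cells and 499 in eSAS cells. The log2 ratio was 0.84 ± 0.20 (software error), larger than the SD of 0.068 between replicate spots of like brightness (71 probes), and 1.36% of probes had a ratio as high or higher. The second probe, A_24_P29885, starts 1136 bases before it and was dim on both arrays, at 31.5 and 44.3. Its ratio was 0.55 ± 0.26, a 1.46-fold difference, and replicate spots at that brightness had an SD of 0.19 (26 probes). Both probes were higher in eSAS cells, and their ratios differed by 0.29, within the 95th percentile for genes with 2 probes. Relative to its 2 usable neighbours the second probe was at 0.60, just past 1.5-fold. NOV, CTGF and CYR61 thus differed in their values, with 1 of the 3 genes past 1.5-fold.

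TGFBI encodes a collagen-binding protein with fasciclin domains that is induced by TGF-beta, and POSTN encodes periostin, which has the same domains. The TGFBI probe A_23_P156327, at chr5:135427242-135427301, gave 132990 in SAS cells and 113760 in eSAS cells. It was not saturated on either array, and its log2 ratio was -0.17, which is 11.2% lower in eSAS cells. Replicate spots of like brightness had an SD of 0.057 (15 probes). The POSTN probe A_24_P347411, at chr13:37051161-37051220, gave 10.72 and 3.38, below the lowest signal called well above background on either array, so no fold is given.

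SPP1 encodes osteopontin, an acidic phosphoprotein that binds integrins and CD44. All 10 spots of its probe A_23_P7313, at chr4:89122944-89123003, were dim. They ranged from 2.65 to 7.47 in SAS cells (median 3.14) and from 3.27 to 6.01 in eSAS cells (median 4.26). The ranges overlapped and 0 spots were well above background, so osteopontin RNA was not detectable at this sensitivity in either population and no fold is given.

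The genes around the 10 members were taken from lists of relatives, receptors, upstream pathways and binding partners. As the members, they have 1 array per population and no test. For these lists, measured means well above background on at least 1 array. Among 26 relatives, 16 genes with 21 probes were measured, with a median log2 ratio of -0.0071. At least 1.5-fold, 3 probes were lower in eSAS cells (14.3%, beside 6.12% of all probes) and 2 were higher (9.52%, beside 4.43%). WISP2 encodes CCN5, which lacks the last module of the other CCN proteins. It went from 848 in SAS cells to 105 in eSAS cells, which is 7.80-fold lower and a larger difference than at any probe of the 10 members. FBLN2 encodes fibulin-2, a partner of basement membranes and elastic fibres, and went from 1261 to 680, which is 1.79-fold lower. SPOCK1, for the proteoglycan testican-1, went from 718 to 396 and was 1.74-fold lower.

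Other relatives were less clear. FBLN5 encodes fibulin-5, an organiser of elastic fibres. It was 4.40-fold higher at a probe with signals of 17.4 and 74.0, which lies in row 498 among the rows with most marked SAS spots and has neighbours with a median ratio of 0.64. At the other FBLN5 probe the signals were 47.3 and 35.0 and the log2 ratio was -0.38. TNXB, for tenascin-X, had 1 probe that was 2.09-fold higher, from 65.1 to 131, while its other 2 probes had log2 ratios of 0.20 and -0.013. For both genes the probes did not give 1 direction.

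Receptors of matricellular proteins differed little, and their counts past a fold do not set them apart from the rest of the array. Of 25 receptor genes, 20 were measured with 33 probes, with a median of 0.037. At least 1.5-fold, 1 probe was higher (3.03%, beside 4.43% of all probes) and 0 were lower (beside 6.12%). That probe was 1 of 4 for ITGA2, the collagen-binding integrin alpha2 subunit, at 21.3 in eSAS cells and not well above background in SAS cells, and the other 3 had ratios of 0.20 to 0.41. ITGA1, its close relative, went from 266 to 333 with a ratio of 0.38. SDC4, for the heparan sulfate proteoglycan syndecan-4, had ratios of 0.33 and 0.36 at its 2 probes. ITGAV, the alpha subunit that pairs with several beta subunits to bind osteopontin, periostin and CCN proteins, had -0.26 and -0.33.

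YAP and TEAD factors and their target genes showed no member past 1.5-fold. All 28 genes were measured, with 52 probes and a median of 0.014. Over all probes, 4.43% were at least 1.5-fold higher and 6.12% lower. Among the genes with the largest mean ratios were IGFBP3, for an insulin-like growth factor binding protein, at -0.57 and -0.58; CRIM1, for a transmembrane protein that binds bone morphogenetic proteins, at 0.41 and 0.29; and NT5E, for the ecto-5′-nucleotidase CD73, at 0.14 to 0.49. CYR61 and CTGF, which belong to the same target genes, were likewise within 1.5-fold.

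TGF-beta genes held larger single differences. Of 20 genes, 18 were measured with 32 probes and a median of 0.0041, and 8 probes of 4 genes were at least 1.5-fold lower (25.0%, beside 6.12% of all probes) while 1 was higher (3.13%, beside 4.43%). Of those 8 probes, 4 belong to 1 gene, LTBP2. PMEPA1, a TGF-beta target that dampens SMAD signalling and is listed on the array as TMEPAI, went from 2415 to 364 and from 1313 to 193 at its 2 probes, which is 6.38-fold and 6.57-fold lower. SMAD7, an inhibitor of the pathway, went from 913 to 495 and was 1.77-fold lower. LTBP2, for a matrix protein of the family named latent TGF-beta binding proteins, had log2 ratios of -0.64 to -0.90 at its 4 probes. TGFB3, a ligand, was 2.74-fold higher but dim, at 28.1 and 74.3. TGFBI and CTGF are among the members known to respond to TGF-beta, and their ratios were -0.17 and 0.12. Of the other members, TNC and SPARC were at -1.17 and -0.70 and the NOV probes at 0.84 and 0.55. A link of any member to the differences in this list was not tested.

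**Figure D4:**
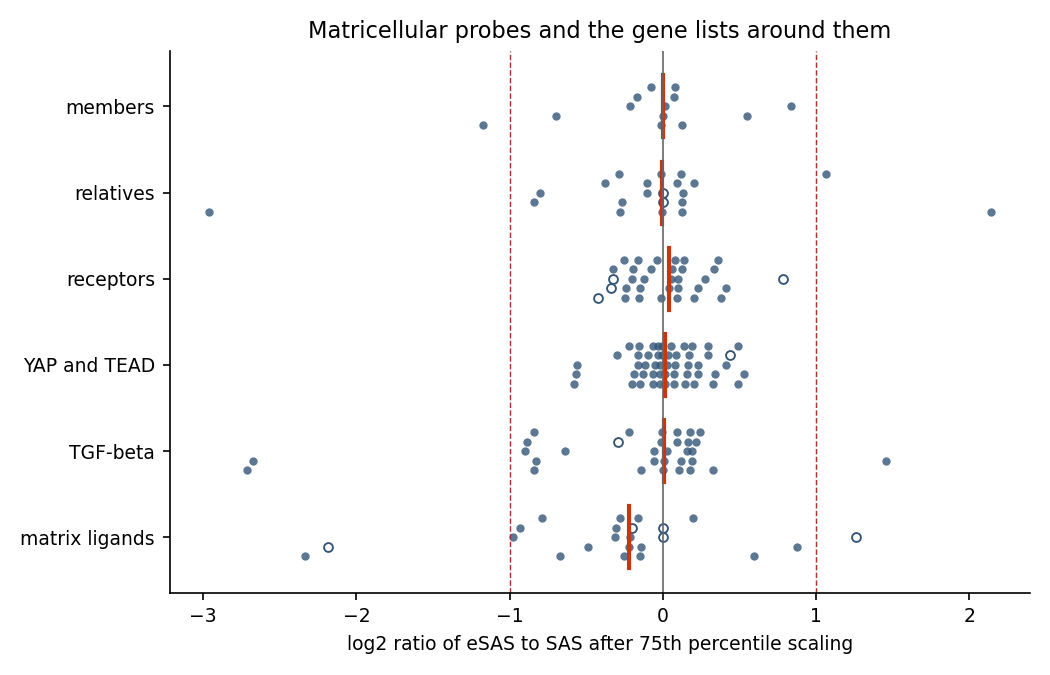
log2 ratio of eSAS to SAS for each probe of the 10 matricellular genes (members) and of 5 gene lists around them; each point is 1 probe, open circles are bounds where 1 array was not well above background, and red bars are medians. Dashed lines mark 2-fold. The matrix ligands have the lowest median, -0.22, and neither the receptors nor the YAP and TEAD genes have a probe past 2-fold.

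Several matrix proteins that bind the members differed between the cells. Of 17 genes, 15 were measured with 23 probes and a median of -0.22, and 18 of the probes were well above background on both arrays. At least 1.5-fold, 6 probes of 5 genes were lower (26.1%, beside 6.12% of all probes) and 3 were higher (13.0%, beside 4.43%). COL5A1, for a chain of the collagen that starts fibril formation, went from 566 to 108, which is 5.05-fold lower, and its second probe, at 71.8 in SAS cells and not well above background in eSAS cells, was at least 4.55-fold lower. COL4A2, for a basement membrane collagen, went from 30511 to 17038 and was 1.72-fold lower. Its partner COL4A1 was 1.97-fold lower at a probe with 1681 and 822 and 1.84-fold higher at a dim probe with 32.7 and 57.8. VCAN, for versican, went from 103 to 52.1 and was 1.91-fold lower. HSPG2, for perlecan, was 1.51-fold higher at 31.3 and 45.5. LUM, for the collagen-binding proteoglycan lumican, was 29.6 in eSAS cells and not well above background in SAS cells, which is at least 2.40-fold higher. SPARC, which binds collagens, was lower beside several of them, and no test of a shared change was possible.

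The cultures were of 1 carcinoma line, and markers of squamous, fibroblast, endothelial and leukocyte cells were read beside these values. A signal at a stromal or leukocyte marker does not by itself show that such cells were present. Of 11 squamous epithelial markers, 10 were on the array and all 10 were well above background. Their summed signal over 13 probes was 109779 for SAS, where all 13 were above background, and 79794 for eSAS, where 12 were. The median log2 ratio was -0.55, and 6 of the 13 probes were at least 1.5-fold lower (46.2%, beside 6.12% of all probes). KRT14, a keratin of basal squamous cells, went from 8749 to 88.3 at 1 probe, 95.4-fold lower, and from 3136 to 1286 at the other, 2.35-fold lower. KRT5, its partner, was 1.55-fold lower, KRT16 1.59-fold lower at 1 probe and at least 2.15-fold at the other, and SFN, for the epithelial 14-3-3 protein, 1.5-fold lower. KRT17, KRT6A, CDH1, TP63 and DSG3 did not pass 1.5-fold, with log2 ratios of -0.55, -0.46, -0.48, -0.40 at both probes and -0.23, and EPCAM was at 0.040, with signals of 40809 and 40413. Thus 4 of the 10 squamous genes had a probe past 1.5-fold, each in the direction of TNC and SPARC, and their part in those differences was not tested. In bulk RNA, fewer cells of a type and less RNA per cell cannot be told apart.

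Stromal markers were sparse. Of 10 fibroblast markers, 4 genes had a probe well above background in either population, and COL1A2, COL3A1, DCN, PDGFRA and PDGFRB had none. Summed over all unmarked fibroblast probes, dim ones included, the signal was 3287 for SAS and 3208 for eSAS. On each array 3 of these probes were above background. Of the sums, THY1 gave 2667 and 2556 and ACTA2 gave 544 and 567. Of 6 endothelial markers, 3 were above background on at least 1 array. Sums over all endothelial probes, dim ones included, were 157 and 140, of which VWF gave 85.9 and 77.0 and CLDN5 30.0 and 25.2. Of 6 leukocyte markers, 3 were above background, and the sums over all leukocyte probes were 3418 and 3415. Of these sums, CD79A gave 2461 and 2396, CD68 717 and 752 and CD14 215 and 233. PTPRC, the marker of all leukocytes, was not well above background on either array. In these 3 lists 0 probes were at least 1.5-fold lower in eSAS cells, beside 6.12% of all probes. Of the 4 fibroblast probes, 1 was at least 2-fold higher, beside 1.83% of all probes. It was that of LUM, which was at least 2.40-fold higher. Lists this short do not set these markers apart from the rest of the array.

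The ratios of TNC, SPARC and NOV kept their directions under the 15 other settings, of which 9 could change the TNC and SPARC ratios and 10 the NOV ratios at all. TNC and SPARC stayed past 1.5-fold except for TNC under normexp background correction with all spots in the fit. That correction placed the median of all probes at 0.47 and the TNC ratio at -0.14, which is -0.61 relative to that median, and the CTGF ratio at 1.38. Without the 26 eSAS spots whose local background was marked as non-uniform, TNC was at -1.06, SPARC at -0.70, NOV at 0.68 and 0.21, and CTGF at 0.082.

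**Figure D5:**
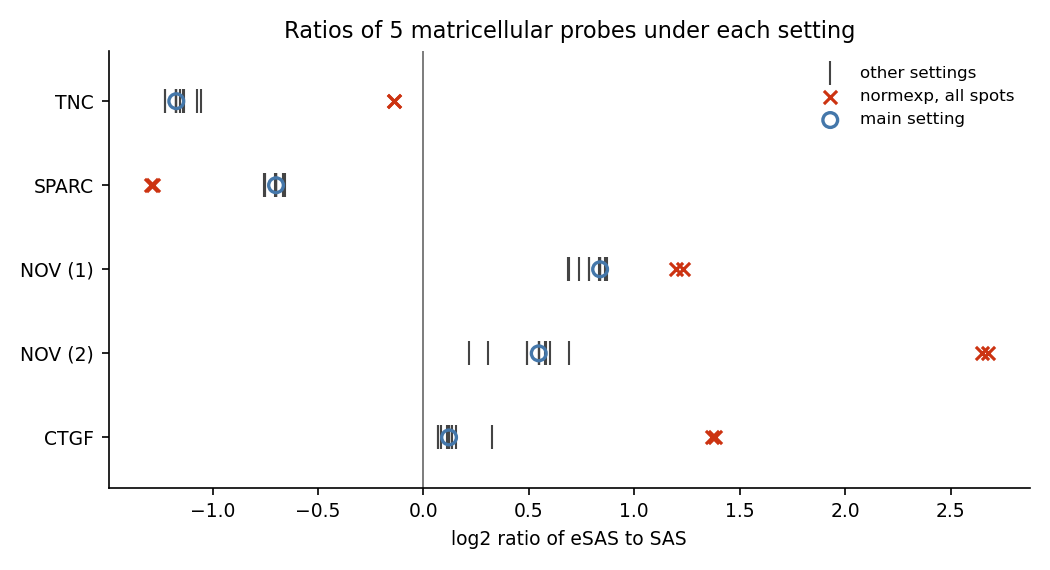
log2 ratio of eSAS to SAS for 5 matricellular probes under the main setting (blue circles), normexp with all spots in the fit, using mean or median pixels (red crosses), and all other settings (black bars). TNC ranged from -1.23 to -1.06 and SPARC from -0.76 to -0.65 over the other settings, whereas normexp with all spots moved TNC to -0.14 and CTGF to 1.38.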

How the data were processed

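Total RNA from each cell population was hybridised to 1 one-colour Agilent whole human genome 4x44K array. The authors deposited Feature Extraction output (version 10.7.3.1, from the submitters' processing notes) with linear intensity values, already corrected for background and within-array trends but not scaled between arrays. Their table for the series equalled the processed signal at every spot (0 differed). The scaling behind the study's own fold changes is not given in the sources used here.

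Members were all non-control probes with 1 of the 10 names. From each log2 processed signal the array's 75th percentile was subtracted, and spots of a probe were averaged without those marked non-uniform or as outliers on either array. A probe was well above background if over 50% of its spots were. Where this held on 1 array, the dim side was raised to at least the lowest signal called well above background (12.8 for SAS, 15.2 for eSAS), so the fold is a lower bound. Called means past 2-fold or 1.5-fold. Of probe spots, 69.4% (SAS) and 67.5% (eSAS) were well above background, over a median local background of 30 and 28. With 1 array per population, their number limits the precision. Like brightness means within 4-fold for replicate spots and within 2-fold for pixel unevenness. Neighbours are the usable ones among the 8 nearest spots.

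Probe coordinates are in hg18, as the array lists them, and promoter coordinates in GRCh38.p14. Other genes were named through RefSeq accessions (23958 probes), symbols (3787) or the array (13255). From each list, genes with a probe at least 2-fold apart and the 4 with the largest mean ratio are named; LTBP2, COL4A1 and the probes sought by description were chosen after their values were seen. Some results for single genes that meet this rule are left out here, although the list counts include them. The members and lists were chosen with earlier results of these data known. R 4.3.3 with limma 3.58.1 (normexp, offset 50) and Python 3.11.15 were used, and the counting was tested on simulated data. The alternatives were other scalings, backgrounds, filters and marks, and values relative to neighbouring spots.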

Additional observations from a re-analysis of the deposited data

How the results depend on the processing

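The 13 member ratios were recomputed under 15 other settings of scaling, background, filter, marked spots and position, 1 of them (without rows 466 to 512) chosen after seeing the data. Normexp with all spots in the fit moved most: with mean and median pixels, the member median became -0.44 and -0.42, 3 and 3 probes were at least 1.5-fold higher and 5 and 5 lower, and 3 and 3 were at least 2-fold higher. Over all probes it called 39.6% at least 2-fold higher, and the fit without the 26 eSAS spots with marked local background gave 0.303%. With no filter on dim probes, 2 members were at least 2-fold lower, POSTN being the addition. Relative to neighbouring spots, a count added after seeing the data, 2 probes were at least 1.5-fold higher, the second NOV probe being the addition. The remaining settings moved no member count by over 1.5 times. Several settings cannot change a single unmarked spot: 6 of the 15 left TNC and SPARC as they were. Over the 13 settings besides normexp with all spots, TNC ranged from -1.23 to -1.06, SPARC from -0.76 to -0.65 and NOV from 0.68 to 0.87 and 0.21 to 0.69. Dim probes, such as the second NOV probe, and probes read by a single spot limit what can be said. No paired analysis was possible because each population has 1 array.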
